A study of Mus musculus with 6 samples.

Results

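The genes described here are the mouse histone modifiers of 6 named families: lysine demethylases (Kdm), lysine methyltransferases (Kmt), histone deacetylases (Hdac), lysine acetyltransferases (Kat), protein arginine methyltransferases (Prmt) and sirtuins (Sirt). A gene was included when its annotated symbol was 1 of these prefixes followed by a number and, where present, a letter, with the Y-linked Kdm5d left out. The array carried 142 probes for 58 such genes, of 45281 probes and 19057 named genes in all. Of the 58 genes, 50 had a probe that passed the detection filter, against 10024 of all genes, and 46 of the 50 were detected on all 6 arrays. The choice used symbols only and no measured value, although it was made with earlier results of these data known. Both groups had 3 samples: embryonic stem cells (ESC) with the strain label R1/E, a mouse ESC line, and spermatogonial stem cells (SSC) with the strain label C57BL/6, each hybridised as biotin-labelled cRNA to 1 Illumina bead array. The labels name no treatment, genotype, age, culture condition or sort for either group, and they do not state whether the replicates of a group came from different animals or culture dishes; p-values therefore cover the spread among these arrays alone, which could be technical. All ESC samples share 1 line and all SSC samples share another strain, so cell type and strain cannot be told apart.

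Histone modifiers add or remove small groups on the histone tails that package DNA. Methyltransferases and acetyltransferases write marks, and demethylases, deacetylases and the NAD-dependent sirtuins erase them; acetylation and H3K4 methylation accompany active genes, whereas methylation of H3K9 and H3K27 accompanies silenced ones. Spermatogonial stem cells are the self-renewing cells of the adult male germline, and embryonic stem cells are the pluripotent cells of the early embryo kept in culture. In the mouse, Kdm1a and Prmt5 are known for roles in pluripotent cells, and Kdm3a and Prmt5 for roles in male germ cells.

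Promoters of 6 of the 12 genes with called differences of at least 2-fold are shown, from 4 families and both directions, because the comparison turns on these genes. Each run is 300 bases of RefSeq sequence (GRCm38.p6), from 250 bases before to 50 bases after an annotated start, written 5′ to 3′ on the gene's strand. Capitals mark matches, on either strand, to the motifs GGGCGG (bound by SP1), CCGGAAG (ETS factors), CCAAT (NFY), TGACGTCA (CREB), GCATGCGC (NRF1), TATAAA (the TATA box), ATGCAAAT (the octamer) and CACGTG (E-box factors). The Kdm7a window, chr6:39206724-39207023 on the minus strand, is 82.7% G and C and holds 65 CpG dinucleotides.
Kdm7a: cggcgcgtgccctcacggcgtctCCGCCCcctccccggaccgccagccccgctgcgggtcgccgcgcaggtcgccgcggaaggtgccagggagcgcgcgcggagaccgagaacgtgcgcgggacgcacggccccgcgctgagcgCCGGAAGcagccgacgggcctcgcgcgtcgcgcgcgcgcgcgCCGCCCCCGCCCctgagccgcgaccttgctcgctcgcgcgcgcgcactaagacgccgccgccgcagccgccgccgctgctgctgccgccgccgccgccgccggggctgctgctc
The Kdm4c window, at 1 of its 2 listed starts, lies at chr4:74251629-74251928 on the plus strand.
Kdm4c: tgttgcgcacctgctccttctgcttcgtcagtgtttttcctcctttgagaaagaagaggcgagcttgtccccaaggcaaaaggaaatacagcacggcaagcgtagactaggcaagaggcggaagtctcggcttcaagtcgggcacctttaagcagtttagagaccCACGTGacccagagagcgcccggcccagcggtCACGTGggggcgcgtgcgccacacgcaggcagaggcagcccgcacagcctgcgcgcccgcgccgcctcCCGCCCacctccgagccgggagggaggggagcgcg
The Kmt2a window lies at chr9:44881240-44881539 on the minus strand.
Kmt2a: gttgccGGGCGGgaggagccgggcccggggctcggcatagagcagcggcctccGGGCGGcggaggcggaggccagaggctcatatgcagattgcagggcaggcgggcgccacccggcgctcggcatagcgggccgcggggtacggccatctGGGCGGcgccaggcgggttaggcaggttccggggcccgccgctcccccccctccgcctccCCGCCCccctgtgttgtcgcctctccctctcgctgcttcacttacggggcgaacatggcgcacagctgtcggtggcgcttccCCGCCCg
The Kat7 window lies at chr11:95310197-95310496 on the minus strand.
Kat7: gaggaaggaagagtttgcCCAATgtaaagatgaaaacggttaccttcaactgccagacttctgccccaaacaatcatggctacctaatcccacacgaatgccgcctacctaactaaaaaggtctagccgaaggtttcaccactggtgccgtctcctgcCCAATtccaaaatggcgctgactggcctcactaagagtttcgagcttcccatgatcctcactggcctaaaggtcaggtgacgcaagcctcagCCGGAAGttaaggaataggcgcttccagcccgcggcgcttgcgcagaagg
The Prmt5 window, chr14:54517421-54517720 on the minus strand, holds 4 CCAAT matches.
Prmt5: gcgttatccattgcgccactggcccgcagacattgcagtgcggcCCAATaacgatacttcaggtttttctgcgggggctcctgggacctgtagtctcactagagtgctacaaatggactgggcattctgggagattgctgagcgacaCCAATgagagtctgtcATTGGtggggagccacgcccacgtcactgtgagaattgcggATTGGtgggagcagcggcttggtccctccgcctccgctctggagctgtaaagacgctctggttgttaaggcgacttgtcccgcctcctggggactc
The Prmt8 window, at 1 of its 2 listed starts, lies at chr6:127769106-127769405 on the minus strand.
Prmt8: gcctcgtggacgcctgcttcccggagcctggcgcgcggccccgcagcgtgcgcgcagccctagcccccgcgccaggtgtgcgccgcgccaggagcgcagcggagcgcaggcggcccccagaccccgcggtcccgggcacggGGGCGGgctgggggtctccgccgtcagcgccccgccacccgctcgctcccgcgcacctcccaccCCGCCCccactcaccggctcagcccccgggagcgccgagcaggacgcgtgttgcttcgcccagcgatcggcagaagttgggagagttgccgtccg
RefSeq windows were matched to 48 of the 58 genes, some of which have several starts, giving 68 windows. CpG-rich windows, with an observed over expected CpG ratio of at least 0.6, made up 56 of the 68 (82.4%), against 69.2% of 10431 windows of measured genes and 35.8% of all 32851 windows. The GGGCGG motif was present in 64.7% of the members' windows, 63.2% of those of measured genes and 35.7% of all windows. CCAAT was present in 42.6% of the members' windows, 37.9% of those of measured genes and 37.4% of all windows. Among windows of members called between the groups, CCAAT was found in 4 of 16 for genes higher in SSC and 15 of 30 for genes lower in SSC; GGGCGG was found in 13 of 16 and 18 of 30. The 16 windows came from 12 genes and the 30 windows from 20 genes, so genes with several starts count more than once. These counts describe letters in a window and carry no test.

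The labels were set against marker genes before the members were read. All 12 embryonic stem cell markers, Nanog, Sox2 and Pou5f1 among them, were lower in SSC, and their summed linear level was 21565 to 22218 in the ESC samples and 2477 to 2711 in the SSC samples. Of 13 markers of undifferentiated spermatogonia, 10 were higher in SSC, among them Gfra1, Ret, Nanos2 and Zbtb16, while Lin28a was lower (−0.80) and Etv5 and Sall4 were not called, and the sum of the 13 was 2954 to 3157 in ESC and 8336 to 8530 in SSC. Markers of other testis cells moved with the groups as well. Of 9 measured Sertoli cell markers of 11 listed, 6 were higher in SSC, with Sox9, Amh and Fshr among them, Rhox5 (−2.18) and Dhh (−0.37) were lower, and Aard was not called (sum 2689 to 3063 in ESC, 4620 to 4992 in SSC). Of 12 measured fibroblast and peritubular myoid markers of 13, 9 were higher in SSC, Dcn and Col1a1 included, Des (−1.38) and Tagln (−0.67) were lower, and Acta2 was not called (sum 3765 to 4016 against 9268 to 10367). The sums of 4 measured Leydig cell markers of 7 were 259 to 268 in ESC and 545 to 721 in SSC, of 4 measured macrophage markers of 9 were 88.6 to 96.0 and 140 to 157, and of 3 measured meiotic and haploid germ cell markers of 10 were 184 to 201 and 502 to 1024. All sums here include the offset of 16 added to each probe in processing. The macrophage markers had log2 means of 4.95 to 5.45 in SSC, near the lowest detected signals of those arrays (4.77 to 4.85). In each of these 3 lists, 3 markers were higher in SSC, while Cyp11a1 of the Leydig list was lower (−1.23) and Csf1r of the macrophage list was not called. Markers undetected in a whole group passed the detection filter through the other group alone, so they had to differ. Those undetected in SSC included Nanog, Esrrb, Tdgf1, Dppa3 and Tagln. Those undetected in ESC included Sox9, Amh, Fshr, Dcn, Cyp17a1, Spo11 and the 3 called macrophage markers. The defining markers Star, Hsd3b1, Ptprc, Adgre1, Sycp3, Dmc1, Prm1 and Tnp1 did not pass the detection filter. The part of these other cells in the results on histone modifiers was not tested. In these bulk samples, fewer cells of a type and less RNA per cell cannot be told apart.

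All levels below are log2 normalised intensities of the gene's brightest detected probe, given for replicates 1 to 3, and differences are SSC minus ESC on the log2 scale with the standard error (SE) of the limma fit and a p adjusted over all 17435 kept probes. Signals of different probes are on different scales, so levels are compared between samples and not between genes. Between arrays, the members' levels correlated at 0.992 to 0.996 within a group and 0.859 to 0.881 between groups, against 0.989 to 0.993 and 0.784 to 0.795 over all kept probes, as a description across genes that share their arrays.

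At an adjusted p under 0.05, 37 of the 50 measured members (74%) differed between SSC and ESC, and 74.4% of all measured genes did. Of the 50, 17 (34%) were higher in SSC, against 37.9% of all genes, and 20 (40%) were lower, against 36.5%. At least 2-fold differences were called for 12 members (24%), against 33.2% of all genes. Of the 12, 6 were higher and 6 lower (12% each), where the shares of all genes were 17.5% and 15.8%. The shares called in each direction thus lay near those of all genes, and no family's share was tested. The median difference was −0.05 for the members and 0.00 for all genes, and the median absolute difference was 0.58 and 0.68. The 3 SSC samples did not overlap the 3 ESC samples for 39 of the 50 members (78%), against 76.9% of all genes. By family, 0 of 6 Kat genes, 1 of 7 Prmt genes, 2 of 7 Sirt genes, 3 of 8 Hdac genes, 6 of 14 Kdm genes and 5 of 8 Kmt genes were higher in SSC.

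**Figure D1:**
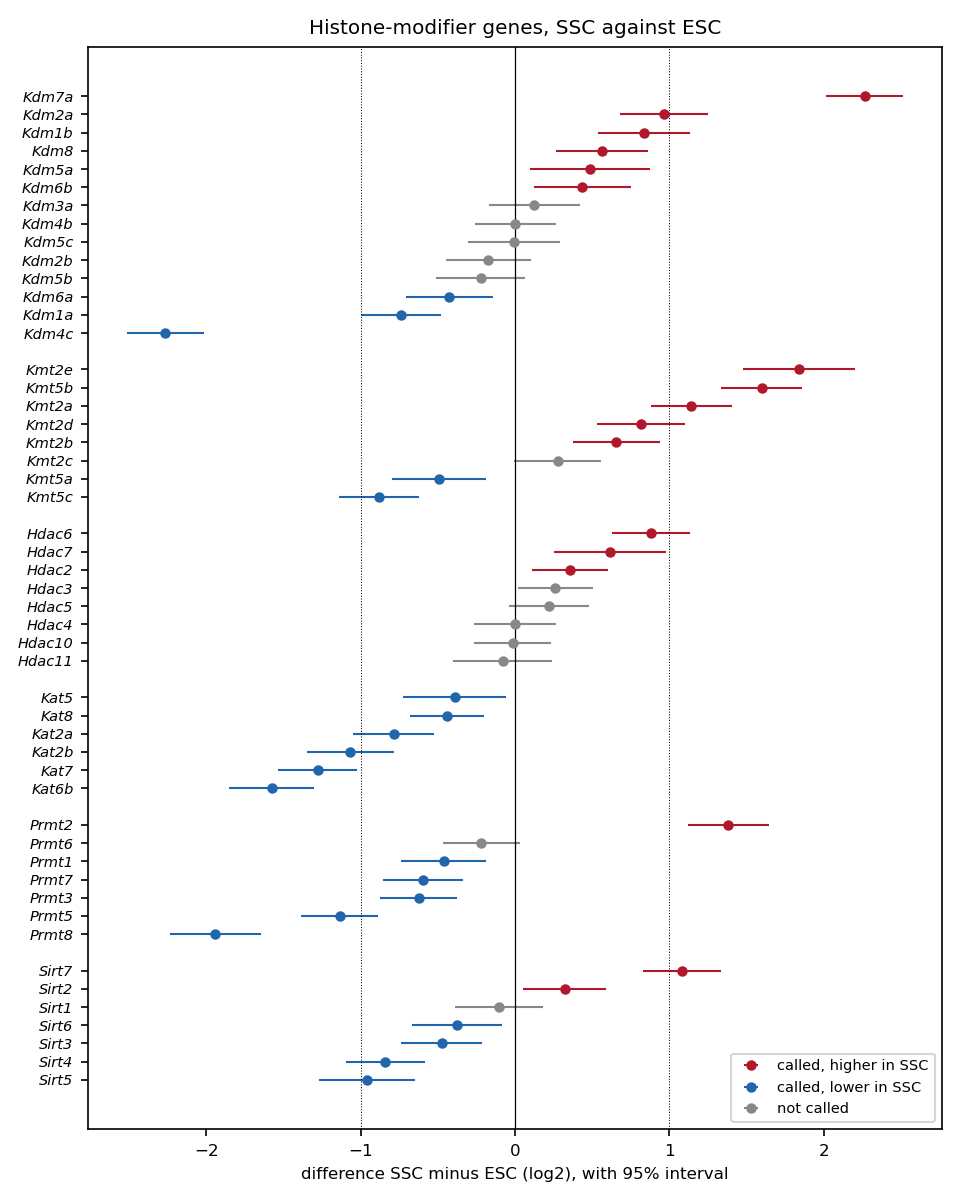
The difference SSC minus ESC (log2) of each of the 50 measured histone modifiers is drawn with its 95% confidence interval, grouped by family, with called and uncalled genes marked. Kdm7a (2.26) and Kdm4c (−2.26) lie farthest from 0, all 6 Kat genes lie below 0, and 6 of 8 Kmt genes lie above it.

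**Figure D2:**
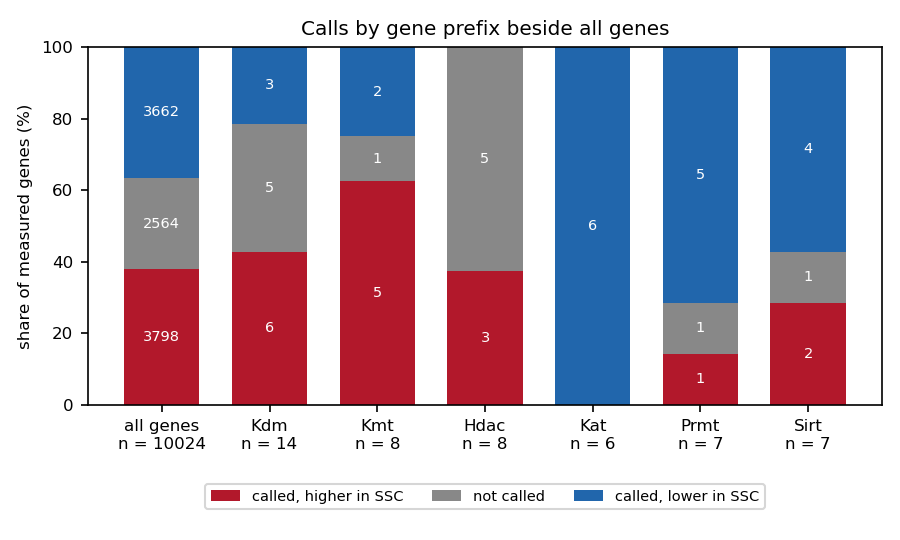
Stacked bars from 0 to 100% show the share of measured genes called higher in SSC, not called and called lower in SSC, for all 10024 genes and for each of the 6 families, with the number of genes in each segment. All 6 Kat genes and 5 of 7 Prmt genes are in the lower segment, 5 of 8 Kmt genes are in the higher segment, and no Hdac gene is in the lower one.

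The lysine methyltransferases leaned towards SSC, with a median difference of 0.74. Of 8 measured genes, 5 were higher, against 37.9% of all genes, 2 were lower, against 36.5%, and Kmt2c was not called. Kmt2a, Kmt2b, Kmt2c and Kmt2d are catalytic subunits of H3K4 methyltransferase complexes. Kmt2e, a SET-domain protein that reads methylated H3K4, measured 6.75, 6.48 and 6.75 in ESC and 8.34, 8.91 and 8.26 in SSC. Every SSC sample lay well above every ESC sample, a 3.58-fold higher mean level (difference 1.84, SE 0.17, adjusted p = 4.79e-07). Its other probe gave 1.06, but no ESC array detected that probe. It passed the filter through the SSC samples alone, so it had to be higher. Kmt2a, which keeps developmental genes such as the Hox clusters active, measured 9.92, 9.93 and 9.79 in ESC and 10.91, 11.16 and 11.00 in SSC. The groups were apart by 2.21-fold (1.14, SE 0.12, adjusted p = 1.89e-06), and its other probe gave 0.59. Kmt2d, a methyltransferase of enhancers, measured 7.56, 7.89 and 7.95 in ESC and 8.54, 8.63 and 8.67 in SSC, without overlap (0.82, SE 0.13, adjusted p = 8.99e-05). Kmt2b, the closest relative of Kmt2a, was also higher in all 3 SSC samples, at 8.78, 8.97 and 9.08 against 8.18, 8.22 and 8.46 in ESC (0.66, SE 0.13, adjusted p = 0.000505). Kmt2c, the relative of Kmt2d, had a difference of 0.28 with a 95% interval of −0.00 to 0.56 (adjusted p = 0.0694), and it was called under 7 of 18 alternatives: without ESC replicate 1 (0.35), without SSC replicate 3 (0.38), without background correction, with an offset of 50, with cyclic loess (0.36), from the authors' processed values and with a trended prior.

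The 3 Kmt5 enzymes, which methylate H4K20, moved in opposite directions. Kmt5b, which adds further methyl groups to singly methylated H4K20, measured 8.11, 7.89 and 7.92 in ESC and 9.46, 9.60 and 9.66 in SSC. That is a 3.03-fold higher level in SSC with no overlap (1.60, SE 0.12, adjusted p = 8.3e-08), although its 5 probes ranged from −0.21 to 1.60, with 3 higher and 2 not called, and their mean was 0.51. Kmt5c, which shares that activity, measured 8.89, 9.00 and 8.95 in ESC and 7.94, 8.05 and 8.20 in SSC. It was thus lower in every SSC sample, by 1.84-fold on average (−0.88, SE 0.12, adjusted p = 2.01e-05). Kmt5a, which adds the first methyl group, measured 8.50, 8.36 and 8.01 in ESC and 7.69, 7.84 and 7.88 in SSC. The groups came close without overlapping (−0.49, SE 0.14, adjusted p = 0.00667). The call was lost with arrays scaled on their medians (−0.28, adjusted p = 0.106). Of its 4 probes, from −1.11 to −0.16, 2 were lower and 2 were not called. The lowest (−1.11) was detected on no SSC array, so it passed the filter through the ESC samples alone. The 2 uncalled probes (both −0.16) had mean levels of 8.02, close to the 8.05 of the brightest probe.

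The arginine methyltransferases leaned the other way (median −0.59). Of 7 measured genes, 5 were lower in SSC, against 36.5% of all genes, 1 was higher, against 37.9%, and Prmt6 was not called. Prmt5, the main enzyme of symmetric arginine dimethylation and a partner of the germline factor Prdm1 in the mouse, measured 10.56, 10.42 and 10.61 in ESC and 9.38, 9.36 and 9.44 in SSC. All SSC samples lay below all ESC samples, by 2.19-fold on average (−1.13, SE 0.12, adjusted p = 1.43e-06), and its 3 probes ranged from −1.58 to −1.13. Prmt8, a membrane-anchored enzyme known mainly from brain, measured 6.48, 6.33 and 6.01 in ESC and 4.36, 4.39 and 4.24 in SSC. It was detected on all 3 ESC arrays and on 0 of 3 SSC arrays. In the background-corrected signals its level was at least 2.77-fold lower in SSC (adjusted p = 4.04e-08). Without background correction its difference was −0.60, so the bound depends on that correction. This gene passed the filter through the ESC samples alone, so it had to differ, and does not pass it when 1 of them is left out. The bound sets the ESC mean against the lowest signal of a detected probe on each SSC array, or the probe's own signal where higher.

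Prmt7, which adds single methyl groups to arginine, measured 11.55, 11.59 and 11.32 in ESC and 10.88, 10.91 and 10.90 in SSC. Its SSC values were nearly level and below all ESC values (−0.59, SE 0.12, adjusted p = 0.000586), and all 4 probes were lower, from −1.08 to −0.59. Prmt1, the main enzyme of asymmetric dimethylation, measured 10.89, 11.02 and 10.90 in ESC and 10.37, 10.38 and 10.68 in SSC, without overlap (−0.46, SE 0.13, adjusted p = 0.00516). Prmt3, an enzyme of a ribosomal protein, measured 10.73, 10.63 and 10.71 in ESC and 9.96, 10.11 and 10.13 in SSC. By this probe it was lower in SSC (−0.62, SE 0.12, adjusted p = 0.000299), but it was the 1 member whose probes were called both ways, with a further probe lower (−0.48) and another higher (0.47). The mean of its probes was −0.21 and was not called. Prmt2 stood opposite to the rest of the family at 8.89, 8.91 and 9.00 in ESC and 10.16, 10.33 and 10.46 in SSC. Every SSC sample was higher, and the group means differed by 2.6-fold (1.38, SE 0.12, adjusted p = 3.45e-07), and its other probe gave 1.41. For Prmt6, which methylates H3R2, the difference was −0.22 with an interval of −0.47 to 0.03 (adjusted p = 0.103).

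All 6 measured Kat genes, the acetyltransferases included by symbol, were lower in SSC (median −0.93), against 36.5% of all genes. Of these 6, 3 were lower by at least 2-fold, against 15.8%. Kat6b, of the MOZ and MORF complexes, measured 11.19, 11.10 and 10.94 in ESC and 9.65, 9.50 and 9.36 in SSC. The groups were far apart, with a 2.98-fold lower level in SSC (−1.58, SE 0.13, adjusted p = 1.47e-07). Its other probes gave −1.04 and −0.95, but no SSC array detected them. They passed the filter through the ESC samples alone, so they had to be lower. Kat7, the HBO1 enzyme that acetylates H3K14 and acts in replication licensing, measured 8.35, 8.57 and 8.50 in ESC and 7.15, 7.27 and 7.17 in SSC. Every SSC value was below every ESC value, by 2.43-fold on average (−1.28, SE 0.12, adjusted p = 5.4e-07), and its other probe gave −0.87. Kat2b and Kat2a are the paralogous acetyltransferases of the SAGA and ATAC complexes. Kat2b measured 6.00, 5.85 and 5.76 in ESC and 4.97, 4.84 and 4.60 in SSC, where 2 of 3 arrays detected it (−1.07, SE 0.13, adjusted p = 8.18e-06). Kat2a measured 8.20, 8.30 and 8.49 in ESC and 7.52, 7.52 and 7.59 in SSC (−0.79, SE 0.12, adjusted p = 5.8e-05). Neither paralogue had overlapping groups.

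Kat8, the enzyme of H4K16 acetylation, was lower in SSC by a smaller amount (−0.44, SE 0.11, adjusted p = 0.00311). Kat5, the catalytic subunit of the TIP60 complex, measured 6.09, 6.00 and 6.49 in ESC and 5.70, 6.05 and 5.67 in SSC. Its groups overlapped, and the call (−0.39, SE 0.15, adjusted p = 0.0364) was lost without ESC replicate 3 (−0.24), without SSC replicate 1 (−0.34) or without SSC replicate 3 (−0.32). It was also lost with arrays scaled on their medians (−0.05, adjusted p = 0.796), without background correction or from the authors' processed values (−0.15 in both), with cyclic loess (−0.34), with no detection filter and at an adjusted p under 0.01. Without background correction the Kat2b difference was −0.31.

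**Figure D3:**
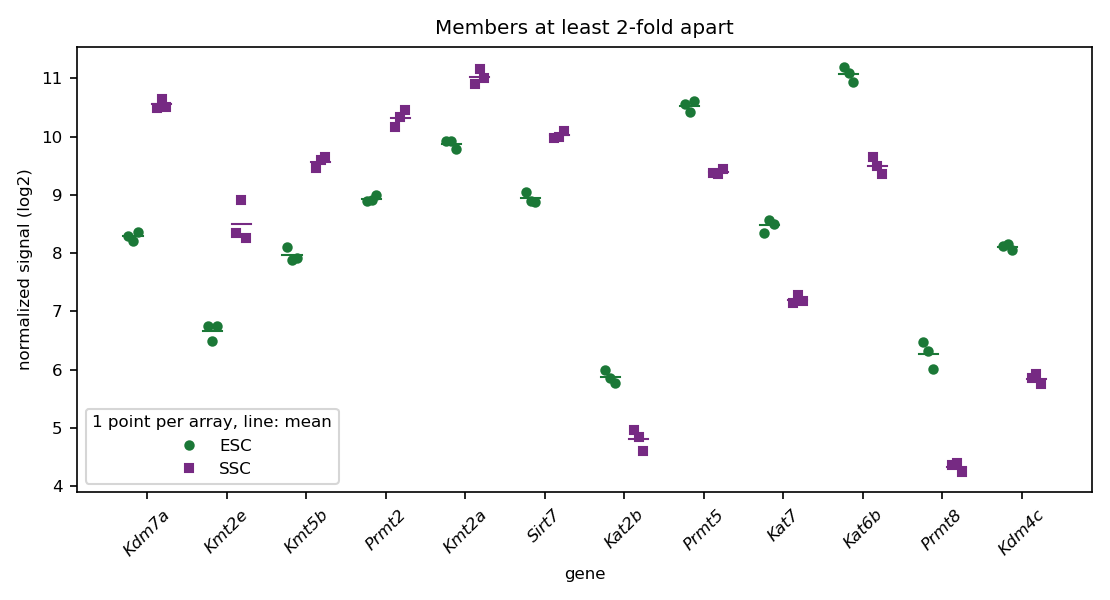
Normalised log2 signal of the 12 members at least 2-fold apart, ordered by difference, with 1 point per array (circles ESC, squares SSC) and a line at each group's mean. In all 12 genes the 3 points of 1 group lie clear of the 3 points of the other, from Kdm7a (2.26) to Kdm4c (−2.26). The genes were chosen by these differences, so such separation is largely set by the choice. The groups did not overlap for 76.9% of all genes. Prmt8 was detected on 0 of 3 SSC arrays and Kat2b on 2 of 3.

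The demethylases were divided (median 0.06). Of 14 measured genes, 6 were higher in SSC, against 37.9% of all genes, 3 were lower, against 36.5%, and 5 were not called. The family held both of the largest differences of all measured members. Kdm7a, which removes methyl groups from H3K9 and H3K27, measured 8.30, 8.22 and 8.36 in ESC and 10.50, 10.65 and 10.51 in SSC. The SSC samples were 4.81-fold higher with little spread in either group (2.26, SE 0.12, adjusted p = 1.75e-09), and its other probe gave 0.89. Kdm4c, which acts on H3K9 and H3K36, measured 8.13, 8.15 and 8.05 in ESC and 5.85, 5.93 and 5.75 in SSC. It was 4.8-fold lower in SSC, again with little spread (−2.26, SE 0.11, adjusted p = 1.63e-09), and without background correction the difference was −1.24. Of its close relatives, Kdm4b had a difference of 0.00 with an interval of −0.26 to 0.27 (adjusted p = 0.98), and Kdm4a and Kdm4d did not pass the detection filter.

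Kdm1a, the flavin-dependent H3K4 demethylase of the CoREST complex, measured 11.50, 11.34 and 11.24 in ESC and 10.58, 10.60 and 10.68 in SSC. It was lower in every SSC sample (−0.74, SE 0.12, adjusted p = 9.09e-05). Its paralogue Kdm1b, known in the mouse for setting maternal imprints in oocytes, measured 7.51, 7.20 and 7.25 in ESC and 8.16, 8.35 and 7.97 in SSC. The direction was opposite to that of Kdm1a (0.84, SE 0.14, adjusted p = 0.000107), while a second Kdm1b probe gave 0.01 and was not called, and the mean of its probes was 0.42. Kdm2a, an H3K36 demethylase that binds CpG islands, measured 8.77, 8.80 and 8.87 in ESC and 9.54, 9.96 and 9.84 in SSC. The groups were well apart (0.97, SE 0.13, adjusted p = 2.05e-05). Kdm2b, which brings a Polycomb complex to CpG islands, measured 7.86, 7.99 and 7.87 in ESC and 7.55, 7.76 and 7.90 in SSC. Its groups overlapped and it was not called (−0.17, interval −0.44 to 0.10, adjusted p = 0.233), although its other probe was lower in SSC (−0.62).

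The H3K27 demethylases Kdm6a and Kdm6b differed in opposite directions. Kdm6a, on the X chromosome, measured 9.47, 9.40 and 9.44 in ESC and 8.96, 9.24 and 8.83 in SSC (−0.42, SE 0.13, adjusted p = 0.00984), without overlap and with −0.46 at its other probe. Kdm6b measured 8.68, 8.42 and 8.13 in ESC and 8.98, 8.81 and 8.76 in SSC (0.44, SE 0.15, adjusted p = 0.016). The Kdm6b groups lay close, and the call was lost without ESC replicate 3 (0.30) or SSC replicate 1 (0.38), with the mean of its probes (0.21), with no detection filter and at an adjusted p under 0.01. Its further probes gave −0.23, not called, and 0.42, called. Kdm8 measured 6.78, 6.62 and 6.71 in ESC and 7.02, 7.28 and 7.50 in SSC, without overlap (0.56, SE 0.14, adjusted p = 0.00244). Its difference was 0.31 without background correction and 0.90 with arrays scaled on their medians. Of the H3K4 demethylases of the Kdm5 group, Kdm5a was called higher with overlapping groups (0.49, SE 0.18, adjusted p = 0.0271), and its other probe gave 0.72. That Kdm5a call was lost without ESC replicate 1 (0.47), ESC replicate 3 (0.39), SSC replicate 1 (0.32) or SSC replicate 2 (0.44). With background left in the signal, and from the authors' processed values, it was lost as well (0.16 in both), as it was with no detection filter and at an adjusted p under 0.01, and was kept at 0.80 with arrays scaled on their medians. Kdm5b measured 9.99, 9.81 and 9.83 in ESC and 9.42, 9.77 and 9.78 in SSC, with the groups just apart and no call (−0.22, interval −0.51 to 0.07, adjusted p = 0.147). Of its further probes, 1 was called lower (−0.34, adjusted p = 0.0153) and another was not called (−0.19). The mean of its probes was called lower (−0.25). For Kdm5c (−0.00, interval −0.30 to 0.29) and for Kdm3a, an H3K9 demethylase needed for spermatid maturation in the mouse (0.12, interval −0.17 to 0.42), the groups overlapped without a call.

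No measured Hdac gene was lower in SSC, against 36.5% of all genes. Of 8 measured Hdac genes, 3 were higher, against 37.9% of all genes, and 5 were not called. The Hdac median was 0.24, and none of these genes reached a 2-fold difference. Hdac6, the cytoplasmic deacetylase of tubulin, measured 7.35, 7.43 and 7.55 in ESC and 8.37, 8.25 and 8.36 in SSC. Every SSC sample was higher, by 1.84-fold on average (0.88, SE 0.12, adjusted p = 1.59e-05). Hdac7, a class IIa enzyme, measured 4.82, 5.28 and 4.99 in ESC, where 1 of 3 arrays detected it, and 5.86, 5.79 and 5.29 in SSC, where all 3 did. Its groups were separated by a narrow gap (0.62, SE 0.17, adjusted p = 0.00487), and the difference was 0.18 without background correction. Hdac2, a catalytic subunit of the Sin3, NuRD and CoREST complexes, measured 11.13, 11.06 and 10.97 in ESC and 11.43, 11.34 and 11.47 in SSC. This 1.28-fold difference was above the spread (0.36, SE 0.11, adjusted p = 0.0128), was not called without ESC replicate 3 (0.31, adjusted p = 0.0524), and was 0.09 with arrays scaled on their medians. Hdac3, the enzyme of the NCoR complex, lay at the threshold with groups that did not overlap (0.26, interval 0.02 to 0.51, adjusted p = 0.0508), and was called higher under 8 of 18 alternatives. The remaining class II and IV enzymes were not called, with differences of 0.22 for Hdac5 (interval −0.04 to 0.48), 0.00 for Hdac4 (−0.27 to 0.27), −0.01 for Hdac10 (−0.26 to 0.24) and −0.08 for Hdac11 (−0.40 to 0.24). Hdac1 is not among the probes named here.

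Among the 7 sirtuins (median −0.38), 4 were lower in SSC, against 36.5% of all genes, 2 were higher, against 37.9%, and Sirt1 was not called. Sirt3, Sirt4 and Sirt5 are the mitochondrial sirtuins, and all 3 were lower. Sirt5 measured 6.33, 6.31 and 6.56 in ESC and 5.53, 5.17 and 5.63 in SSC (−0.96, SE 0.14, adjusted p = 4.52e-05), with −1.03 at its other probe. Sirt4 measured 6.56, 6.69 and 6.70 in ESC and 5.73, 5.93 and 5.77 in SSC (−0.84, SE 0.12, adjusted p = 2.84e-05). Sirt3 measured 9.33, 9.11 and 9.01 in ESC and 8.66, 8.69 and 8.68 in SSC (−0.47, SE 0.12, adjusted p = 0.00336). None of the 3 had overlapping groups; without background correction the differences of Sirt4 and Sirt5 were −0.35 and −0.36. Sirt7, the nucleolar sirtuin that removes acetyl groups from H3K18, measured 9.05, 8.90 and 8.87 in ESC and 9.97, 10.00 and 10.09 in SSC. Every SSC sample was higher, and the group means differed by 2.12-fold (1.08, SE 0.12, adjusted p = 2.31e-06). Sirt1, the best-studied nuclear sirtuin, measured 7.96, 7.90 and 8.16 in ESC and 7.82, 8.10 and 7.78 in SSC, with overlapping groups and no call (−0.11, interval −0.39 to 0.18, adjusted p = 0.48).

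Sirt6, a chromatin-bound sirtuin of telomeres and DNA repair, measured 5.80, 6.04 and 6.11 in ESC and 5.41, 5.77 and 5.64 in SSC. The gap between the groups was small (−0.38, SE 0.14, adjusted p = 0.023), its further probes gave −0.25 and −0.00 and were not called, and the call was lost without ESC replicate 2 (−0.35), ESC replicate 3 (−0.32) or SSC replicate 1 (−0.28). It was also lost with arrays scaled on their medians (−0.04, adjusted p = 0.801), without background correction or from the authors' processed values (−0.13 in both), with the mean of its probes (−0.21), with no detection filter and at an adjusted p under 0.01. Sirt2, which is mainly cytoplasmic, measured 6.53, 6.72 and 6.60 in ESC and 6.83, 7.10 and 6.87 in SSC. It was called higher without overlap (0.32, SE 0.12, adjusted p = 0.0315), and not without ESC replicate 1 (0.28), ESC replicate 3 (0.31) or SSC replicate 2 (0.24), nor at an adjusted p under 0.01. Its difference was 0.17 without background correction and 0.68 with arrays scaled on their medians.

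For the 13 members that were not called, the 95% intervals of the differences lay between −0.51 and 0.56, within 1.5-fold in either direction for each of them. The 8 genes that did not pass the detection filter were Hdac8, Hdac9, Kat14, Kat6a, Kdm3b, Kdm4a, Kdm4d and Prmt9, and their levels were not compared. Of the 50 measured members, 25 had 1 kept probe and 25 had more. Among the latter, 13 had all probes called the same way, 7 had some called in 1 direction, 4 had none called and only Prmt3 had probes called in both directions. Further probes of Kat2b, Kat6b, Kmt2e and Kmt5a were undetected in 1 whole group and passed the filter through the other group alone.

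**Figure D4:**
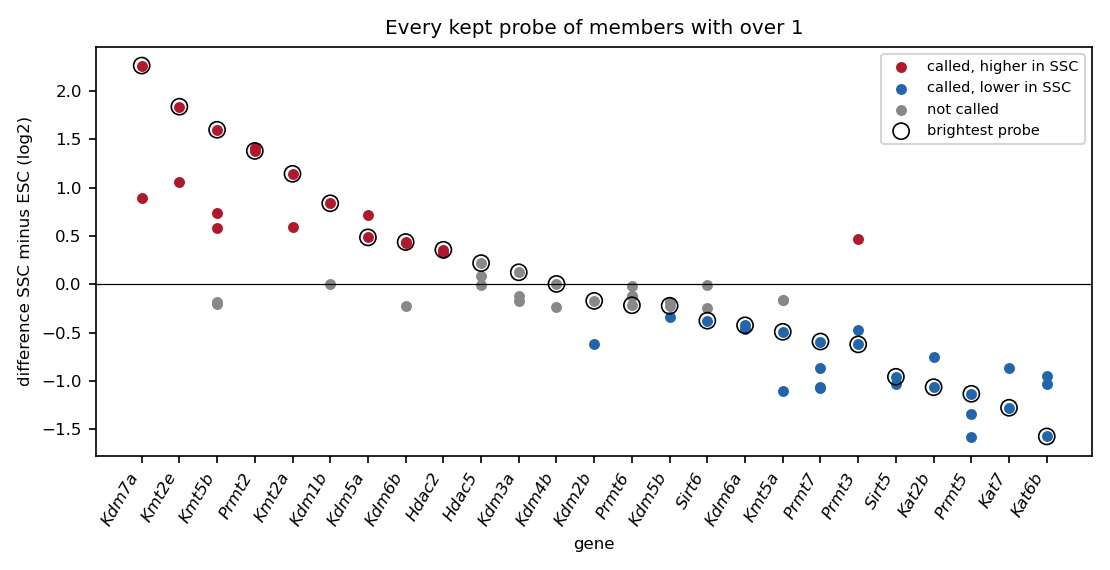
Every kept probe of the 25 members with more than 1 is plotted by its difference SSC minus ESC (log2), 1 column per gene, with the brightest probe ringed and called probes coloured by direction. Most genes keep their probes on 1 side of 0, whereas Prmt3 (−0.62, −0.48 and 0.47) and Kmt5b (−0.21 to 1.60) spread widely.

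The partners of these enzymes were read from lists of complex subunits and related genes. The counts of each list stand beside 37.9% of all genes called higher in SSC and 36.5% called lower. Of the 37 partner genes named, 12 had differences smaller by over 1.5 times without background correction and 0 lost their call; the 12 were Chd3 (1.01), Hcfc2 (0.41), Msl2 (1.04), Nampt (−0.53), Ncoa6 (0.28), Nmrk1 (−0.28), Nnmt (0.43), Phf8 (0.26), Qprt (−1.42), Tbl1xr1 (−1.07), Tdrd3 (0.63) and Wdr82 (−0.40). The H3K4 methyltransferase complexes combine a Kmt2 or Setd1 enzyme with a shared core of Wdr5, Rbbp5, Ash2l and Dpy30. Of 12 measured subunits of 13 with a probe, 3 were higher in SSC, 6 were lower and 3 were not called (median −0.30). Dpy30 (−1.50, SE 0.12, adjusted p = 1.53e-07), Ash2l (−1.21, SE 0.12, adjusted p = 8.33e-07) and Wdr82 (−1.11, SE 0.12, adjusted p = 3.01e-06) had the largest lower values. The other core subunits, named after their values were seen, were lower too, at −0.76 for Wdr5 and −0.59 for Rbbp5 (−0.35 with arrays scaled on their medians). Hcfc2 (1.30, detected on 1 of 3 ESC arrays), Cxxc1 (1.27) and Ncoa6 (0.81) were higher. Probes disagreed for Cxxc1, whose other probe was lower (−4.47), and for Wdr82, of which 1 of 4 probes was higher (0.97). The means of their probes were −1.60 for Cxxc1 and −0.32 for Wdr82.

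Of 44 measured subunits of the acetyltransferase complexes, 14 were higher, 14 were lower and 16 were not called (median 0.06). Of all genes, 37.9% were higher and 36.5% were lower. All 6 catalytic Kat genes were lower. Ruvbl2, an ATPase of the TIP60 complex, was the lowest (−2.45, SE 0.14, adjusted p = 4.33e-09), followed by Actl6a (−1.39) and Jade1 (−1.31), a scaffold of the HBO1 complex. Brd8, a bromodomain subunit of the TIP60 complex, was highest at 3.99 (SE 0.13, adjusted p = 3.06e-11), but 2 of its 3 probes were called lower, the lowest at −1.17, and the mean of its probes was 0.78. Msl2 (1.91) and Kansl3 (1.76), of the complexes that hold Kat8, were higher. The other Kansl3 probe was called higher too, at 0.42. Of 3 Msl2 probes, 1 was called, and their mean was 0.64.

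The deacetylase complexes had 12 subunits higher, 10 lower and 8 not called of 30 measured (median 0.13). Sap30, a Sin3 complex subunit, measured 11.27, 11.11 and 11.05 in ESC and 8.16, 8.09 and 8.16 in SSC, far below in every sample (−3.00, SE 0.12, adjusted p = 1.27e-10). Mbd2, a methyl-CpG binding subunit of NuRD (−1.81), and Tbl1xr1 of the NCoR complex (−1.72) were lower as well. Chd3, a NuRD ATPase (2.24, SE 0.14, adjusted p = 9.77e-09), the scaffold Sin3b (1.93, SE 0.15, adjusted p = 8.33e-08) and Suds3 (0.92) were higher.

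Writers and erasers outside the naming rule gave 10 higher, 14 lower and 8 not called of 32 measured (median −0.06). Among them the H3K36 methyltransferases Nsd2 (1.51, SE 0.13, adjusted p = 2.59e-07) and Nsd3 (0.90) and the demethylase Phf8 (0.90, detected on 2 of 3 ESC arrays), a relative of Kdm7a, were higher. Setd6 (−1.79), Hspbap1 (−1.72) and Ezh2, the H3K27 methyltransferase of Polycomb (−1.75, SE 0.13, adjusted p = 8.33e-08), were lower. The partners of arginine methylation were mixed, with 3 higher, 3 lower and 4 not called of 10 measured. Clns1a, a Prmt5 partner, was lower (−0.54), as were the Sm protein genes Snrpd1 (−0.57) and Snrpd3 (−0.61), whose products Prmt5 methylates. Tdrd3 (1.11), Btg1 (0.45) and Snrpb (0.60) were higher, with 1 of 3 Snrpb probes lower (−0.47) and the mean of the 3 not called (0.16).

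Of 6 measured genes of NAD and nicotinamide metabolism, which provides the cofactor of sirtuins, 4 were lower and 2 higher (median −0.76). Nampt, the rate-limiting enzyme of NAD salvage, was lower (−1.21, SE 0.13, adjusted p = 2.31e-06), as was Nmrk1 (−0.86). Qprt, of NAD synthesis from tryptophan, was detected on 0 of 3 SSC arrays. It was at least 8.30-fold lower in the background-corrected signals (adjusted p = 5.38e-11), with a difference of −1.42 without that correction. Nnmt, which methylates nicotinamide, was detected on 0 of 3 ESC arrays. It was at least 1.98-fold higher in SSC in the background-corrected signals (adjusted p = 1.52e-05), with a difference of 0.43 without that correction. Naprt was higher by 0.50, called at 1 of its 2 probes. Qprt and Nnmt passed the detection filter through the group where they are high, so their adjusted p-values are of genes that had to differ. Each of these lists had called shares in both directions, and 74.4% of all genes were called in this comparison.

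**Figure D5:**
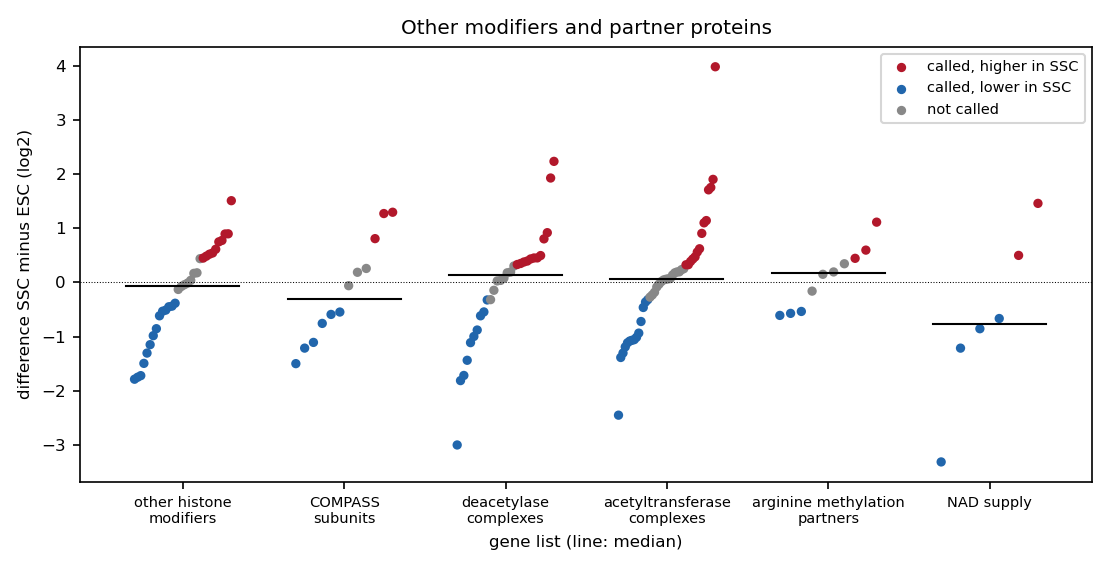
Measured genes of each partner list are plotted by their difference SSC minus ESC (log2), 1 column per list, with points coloured by call and a line at each list's median. Brd8 (3.99) and Qprt (−3.32, not detected in SSC) lie at the ends, and the medians lie between −0.76 and 0.17.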

How the data were processed

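RNA of 3 ESC and 3 SSC samples was hybridised to 1-colour Illumina arrays of 45281 probes. The deposited unnormalized table gives each probe's intensity on every array, with background in it, beside its detection p-value. GenomeStudio is listed, with neither version nor role, per the submitters' processing notes. A further table of intensities processed by the authors served as an alternative; the steps behind it are not stated. Background was corrected by normexp from the detection p-values (offset 16), arrays were quantile normalized and values log2 transformed (limma 3.58.1, R 4.3.3). Probes with a detection p under 0.01 on at least 3 arrays were kept, fitted with lmFit and eBayes, and adjusted by Benjamini and Hochberg over all 17435. Each gene was read from its brightest kept probe and counted as called below an adjusted p of 0.05. The script was tested on simulated data.

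Groups and replicate numbers came from the labels. Same-numbered samples had correlations of deviations of −0.140, −0.0681 and 0.0303, which show no sign that the numbers pair the samples. With 3 arrays per group and no values for different-numbered samples beside them, these correlations cannot exclude pairing. Probes were named through the platform annotation: 34885 had 1 symbol, 18 several and 10378 are unnamed here, and 34807 named probes matched the RefSeq table by gene identifier. Arrays detected 15242 to 17211 probes, and their number limits the precision. The members and gene lists were chosen with earlier results of these data known. Values in every sample were given for up to 4 called members per family and direction, for members undetected in 1 group or with opposed probes, and for a set list of well-known enzymes; of each partner list, up to 3 called genes per direction were named. Motifs were counted in RefSeq promoter windows (GRCm38.p6). Alternatives covered background, normalization, the detection filter, the choice of probe, the variance prior, the threshold, a replicate block and leaving out each sample.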

Additional observations from a re-analysis of the deposited data

How the results depend on the processing

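Of the 37 members called, 26 were called under all 18 alternatives, and Hdac7, Kat2b and Prmt8 under each they could be fitted in; 0 reversed. Of the 13 not called, 5 were uncalled under all 18, and Kdm5c under each it could be fitted in. Scaling on array medians moved the median of all genes to 0.19 and that of the members to 0.12, and gave 10 members at least 2-fold higher (6 in the main setting), 1 Kmt gene lower (2), 5 Hdac genes higher (3), 5 H3K4 methyltransferase complex genes higher (3) and an Hdac10 difference of 0.31 (adjusted p = 0.0408) in place of −0.01. Under it Hdac4 (0.36) and Hdac5 (0.34) were called higher. With background left in the signal, and likewise starting from the authors' table, 3 members were at least 2-fold lower (6) and 5 Hdac genes were higher (3), and 12 of 37 called members had differences smaller by over 1.5 times, Kdm4c (−1.24), Kmt2e (1.19) and Prmt8 (−0.60) among them; the cause was not tested. With the mean of a gene's probes, 5 Kdm genes were lower (3) and Cxxc1 was lower (−1.60 against 1.27), since its probes disagree. At an adjusted p under 0.01, 1 Sirt gene was higher (2), and with detection required on all 6 arrays, 1 NAD gene was higher (2), fewer genes being tested. Leaving out 1 sample gave 1 to 2 Sirt genes higher, 1 to 2 NAD genes higher, 13 to 18 members higher and 17 to 20 lower. The replicate block gave 17 members higher and 20 lower and changed no member's call. Signal over background limits Hdac7, Kat2b, Kdm5c and Prmt8, which were not detected on all 6 arrays.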
